A study of Mus musculus with 12 samples.

Results

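Heat shock proteins and related chaperones were followed in the hippocampus of adult mice as 10 named genes, Hspa1a, Hspa1b, Hspa5, Hspa8, Hspb1, Dnajb1, Hsph1, Hsp90aa1, Hsp90ab1 and Hspd1. The rule names the genes and uses no measured value, though it was set with earlier results of these data known, and all 10 were found among 35580 genes, with 52 annotated transcripts among 113580. The animals were male C57BL/6 mice (C57BL/6J in the methods of the study) aged 70 days, 12 in all and 3 in each of 4 groups, and rRNA-depleted total RNA of their hippocampus was sequenced. Control mice came from dams with only water and stayed with the dam. Ethanol mice came from dams that chose freely between water and 10% ethanol through gestation and, by the methods of the study, into the first days of nursing, so the dose was set by each dam, and they also stayed with the dam. Stress mice had water-drinking dams and were taken from dam and littermates for 3 h a day from postnatal day 2 to 14. Ethanol + stress mice had both exposures. Pups for separation were drawn from within litters, and the sources used here do not tie a library to a litter. Mice of a group, or of groups with the same prenatal treatment, may thus share a litter. The p-values below measure the spread between these 12 mice. Each library is the bulk RNA of a dissected hippocampus, in which fewer cells of a type and less RNA per cell cannot be told apart.

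Chaperones bind unfolded or partly folded proteins and keep them from aggregating while they fold. Hsp70 proteins hold short exposed stretches in cycles of ATP hydrolysis, J-domain proteins such as Dnajb1 start the cycle, nucleotide exchange factors such as Hsph1 end it, and Hsp90 proteins finish the folding of kinases and steroid receptors. The heat-inducible members are switched on by Hsf1, which binds repeats of the heat shock element, while the ER member Hspa5 (BiP) is raised by the unfolded protein response. Neurons hold large amounts of the constitutive members Hspa8 and Hsp90ab1 even without stress.

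Promoter sequence is shown first because the members differ in the stress elements it holds. RefSeq promoter windows on build GRCm38.p6 were matched for 7 of the 10 genes, in 10 windows. Hspa8, Hsp90aa1 and Hsp90ab1 had no entry. The 250 bases before each start were searched on both strands for a pair of head-to-head or tail-to-tail heat shock units, written GAANNTTC or TTCNNGAA. That pair was present in 12.8% of all 32851 windows of the same length, so a single match is common. An array of 3 alternating units, which contains the pair, was present in 0.466% of windows, and the ER stress element in 0.113%. A match describes letters in the window and no more. The next lines give each stretch 5′ to 3′ on the gene's strand, with the matches in capitals. Hspa1a lies at chr17:34972157-34972356 (minus strand), Hspa1b at chr17:34959239-34959438 (minus), Hspb1 at chr5:135887719-135887918 (plus), Hsph1 at chr5:149636351-149636380 (minus), Hspd1 at chr1:55088053-55088082 (minus) and Hspa5 at chr2:34772019-34772048 (plus). The first 3 are the 200 bases just upstream of the RefSeq start. The last 3 are 30 bases around the matches, since their upstream window overlaps exons of other annotated transcripts.
Hspa1a: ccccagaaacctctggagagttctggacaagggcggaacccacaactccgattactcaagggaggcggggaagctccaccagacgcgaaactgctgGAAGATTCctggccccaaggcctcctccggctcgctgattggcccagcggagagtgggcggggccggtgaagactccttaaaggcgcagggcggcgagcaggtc
Hspa1b: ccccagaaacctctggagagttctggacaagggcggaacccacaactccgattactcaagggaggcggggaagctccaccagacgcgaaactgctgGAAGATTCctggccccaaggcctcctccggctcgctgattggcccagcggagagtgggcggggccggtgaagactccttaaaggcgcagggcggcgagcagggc
Hspb1: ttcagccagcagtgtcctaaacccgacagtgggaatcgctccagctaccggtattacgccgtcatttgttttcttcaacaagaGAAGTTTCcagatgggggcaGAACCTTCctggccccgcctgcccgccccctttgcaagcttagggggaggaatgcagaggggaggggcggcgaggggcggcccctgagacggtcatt
Hsph1: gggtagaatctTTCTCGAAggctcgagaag
Hspd1: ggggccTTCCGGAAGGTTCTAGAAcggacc
Hspa5: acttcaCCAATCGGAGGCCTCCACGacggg

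In the GENCODE annotation Hspa1a is a single exon at chr17:34969190-34972156 and Hspa1b a single exon at chr17:34956436-34959238, while Hsph1 spans chr5:149614287-149636376 and Hspa5 spans chr2:34771970-34777547. Hspa1a and Hspa1b, neighbouring copies of inducible Hsp70, were identical at 247 of 250 upstream bases and carried the same pair at position -104, counted from the start. Hspb1 held a pair at -117 and another at -97. Hsph1 held one, at -33 from the start of its window 1 and at -54 from that of its window 2. One of the windows of Hspd1, the mitochondrial chaperonin Hsp60, held 3 overlapping pairs at -144, -139 and -134 and so an array of 3 or more units. Hspa5 had no heat shock pair and held the ER stress element at -65. Neither window of Dnajb1 held any of these motifs.

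Values are TPM, the share of transcript molecules estimated by kallisto, that the authors scaled between libraries, summed here over the transcripts of a gene, and they are per length, so levels may be compared between genes. The constitutive cytosolic Hsp70, Hspa8, was the highest member at a mean of 2104 scaled TPM over the 12 mice. The Hsp90 genes followed, Hsp90ab1 at 1101 and Hsp90aa1 at 945. Hspa5 averaged 274, and Hspd1 (142) and Hsph1 (138) lay within each other's spread. Dnajb1 averaged 29.4. The low end held Hspa1b (12.9), Hspb1 (12.4) and Hspa1a (9.05), whose ranges overlapped. About 113 to 269 read pairs stood behind a value of Hspa1a, 48.8 to 154 behind Hspb1, 130 to 423 behind Hspa1b, and at least 507 behind each of the others. At its lowest, counting error alone was 14.3% for Hspb1 and 0.572% for Hspa8.

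The split of reads between some members and their copies is uncertain. Of the 31-base words in the main transcript, 70.1% of those of Hspa1a and 68.1% of those of Hspa1b also occurred in other genes, mostly in each other. Words shared with any other gene made up 77.6% for Hspa8, 70.8% for Hsp90aa1, 65.4% for Hspb1 and 55.8% for Hspd1. The gene sharing most was Gm15459 (74.3%), Gm12346 (64.2%), Hsp25-ps1 (61.7%) and Hspd1-ps3 (51.8%) in that order. Hsp90ab1 shared 16.6%, Dnajb1 0.475%, and Hspa5 and Hsph1 shared none.

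**Figure D1:**
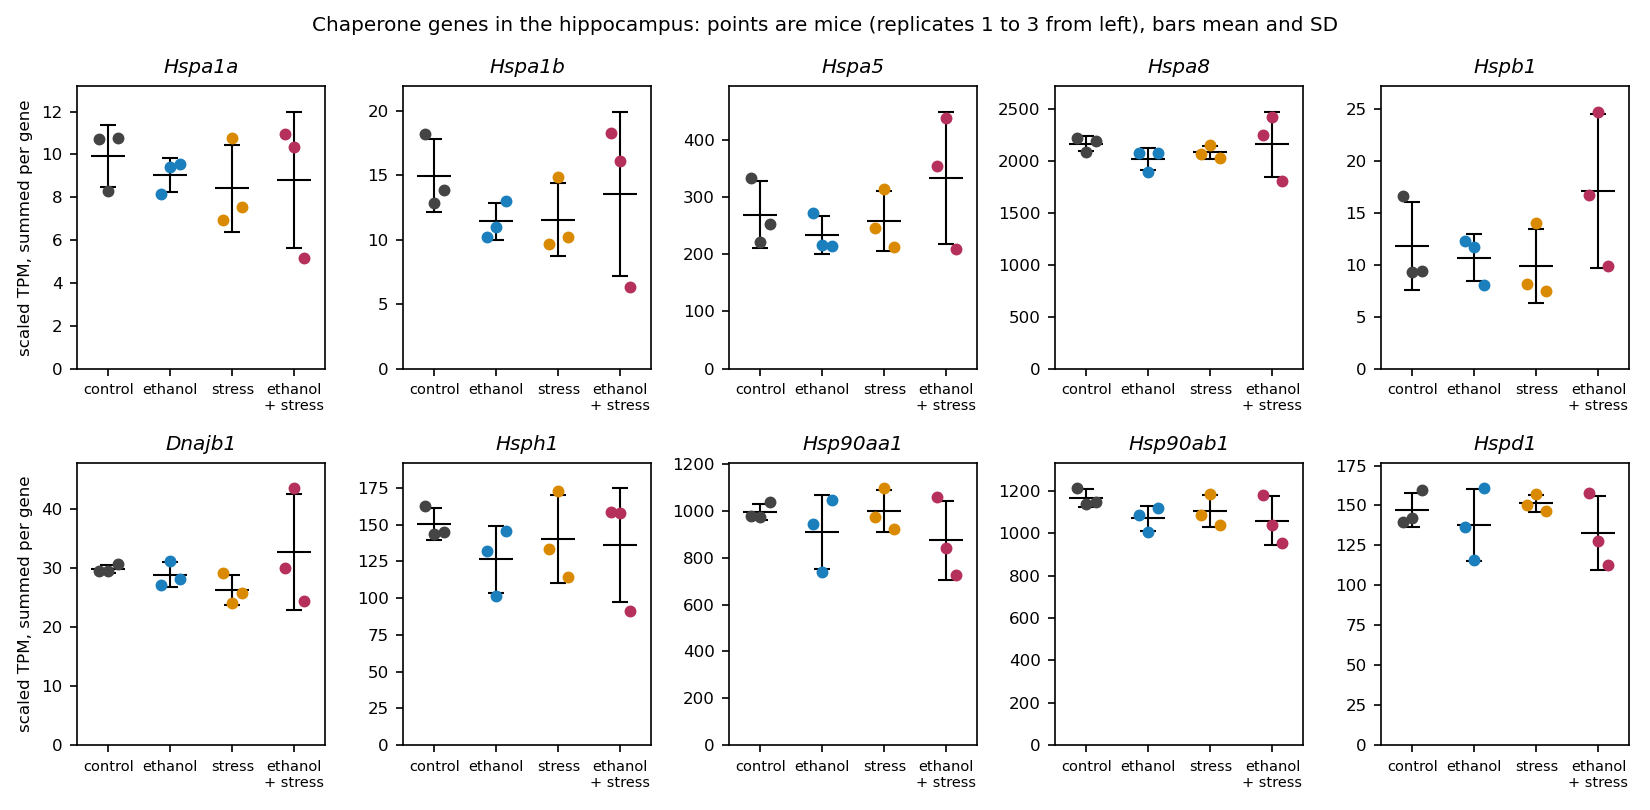
Scaled TPM of the 10 genes (vertical axes, from 0) in each mouse, by group. Points are replicates 1 to 3 from left to right, and the bars give the mean and SD of 3 mice. In ethanol + stress mice the points spread most in every panel, and replicate 3 of that group is the lowest of all 12 mice for 8 of the 10 genes.

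Hspa8 measured 2223, 2079 and 2190.0 scaled TPM in control replicates 1 to 3, 2075, 1895 and 2075 in ethanol mice, 2069, 2150.0 and 2022 in stress mice, and 2244, 2419 and 1809 in ethanol + stress mice. Every ethanol value lay below every control value, though the nearest were close, at 2075 and 2079. The ethanol + stress group held both the highest and the lowest mouse. The group means were 2164 ± 75.5, 2015 ± 104, 2080 ± 64.8 and 2157 ± 315 (SD, n = 3). For the main transcript of Hspa8 alone, control (2206, 2006 and 1964) and ethanol mice (2046, 1775 and 1974) overlapped.

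Hsp90ab1, the constitutive cytosolic Hsp90, measured 1214, 1141 and 1148 in control, 1089, 1005 and 1120.0 in ethanol, 1088, 1187 and 1039 in stress, and 1184, 1040.0 and 956 in ethanol + stress mice. It was the steadiest member, with a highest value 1.27 times the lowest, and its ethanol values again all lay below control. The inducible form, Hsp90aa1, measured 978, 976 and 1036 in control, 943, 737 and 1047 in ethanol, 974, 1097 and 922 in stress, and 1058, 842 and 724 in ethanol + stress mice. Its low values belonged to ethanol replicate 2 and ethanol + stress replicates 2 and 3, and all groups overlapped.

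Hspa1b measured 18.2, 12.9 and 13.8 in control, 10.2, 11 and 13.0 in ethanol, 9.67, 14.8 and 10.2 in stress, and 18.3, 16.1 and 6.30 in ethanol + stress mice. Hspa1a measured 10.7, 8.27 and 10.8 in control, 8.13, 9.40 and 9.56 in ethanol, 6.96, 10.8 and 7.54 in stress, and 10.9, 10.3 and 5.15 in ethanol + stress mice. Both copies were lowest in ethanol + stress replicate 3 and highest in replicate 1 of the same group, and no treated group was clear of control for either.

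Hsph1 (Hsp110), the exchange factor and disaggregase partner of Hsp70, measured 163, 143 and 145 in control, 132, 101 and 146 in ethanol, 133, 173 and 114 in stress, and 159, 158 and 91.0 in ethanol + stress mice. Controls were close together, and each treated group had 1 mouse far below them. Dnajb1 (Hsp40) measured 29.4, 29.5 and 30.7 in control, 27.1, 31.3 and 28.2 in ethanol, 29.2, 24.1 and 25.7 in stress, and 30, 43.6 and 24.5 in ethanol + stress mice. All stress values of Dnajb1 lay below all control values, though the gap between the nearest mice was small, and ethanol + stress replicate 2 stood above every other mouse.

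Hspb1 (Hsp25), a small heat shock protein that holds unfolding proteins without ATP, measured 16.6, 9.30 and 9.37 in control, 12.3, 11.7 and 8.05 in ethanol, 8.14, 14.0 and 7.46 in stress, and 16.7, 24.7 and 9.85 in ethanol + stress mice. It was the most variable member, with a 3.32-fold range. Hspa5 measured 334, 221 and 254 in control, 272, 216 and 214 in ethanol, 247, 315 and 213 in stress, and 356, 439 and 209.8 in ethanol + stress mice. Hspd1 measured 139, 142 and 159 in control, 136, 116 and 161 in ethanol, 150.3, 157 and 146 in stress, and 158, 128 and 113 in ethanol + stress mice. Hspb1 and Hspa5 had their highest value in the same mouse, ethanol + stress replicate 2, in which Hspd1 was among the low values.

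The spread between mice of a group was large for most members. The pooled SD within groups on the log2 scale was 0.49 for Hspb1, 0.46 for Hspa1b, 0.36 for Hspa5, 0.35 for Hspa1a and 0.31 for Hsph1. It was 0.12 for Hspa8 and 0.10 for Hsp90ab1. The median over 11240 genes with a mean of at least 5 was 0.18, and 8 of the 10 members lay above it. The ethanol + stress group had the largest SD of the 4 groups for 10 of 10 members, against 34.7% of the 18434 genes tested. Many members vary together, as described below, so these 10 are not separate observations. For Hspd1 the SD was close to that of ethanol mice, at 23.1 and 22.5 scaled TPM. Ethanol + stress replicate 3 was the lowest mouse for 8 members and replicate 2 the highest for 4.

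Which members differ with prenatal ethanol, with maternal separation or with both was asked with limma on log2(scaled TPM + 0.5) over all 18434 genes, in which a fold change slightly understates the change of low genes. Genes were called at an unadjusted p under 0.01, the threshold of the study, and p-values adjusted by Benjamini-Hochberg over all genes are given beside. No member was called in any comparison, and of 60 tests of a member none had an unadjusted p under 0.05. In a comparison, 442 (stress mice) to 1068 (ethanol averaged over rearing) of the 18434 genes had such a p. For a difference of any kind among the 4 groups, in which 0.721% of all genes were called, p ran from 0.222 (Hspb1) to 0.885 (Hspa8) and the adjusted p was 0.998 for each.

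Against control, 0 members were called in ethanol mice, where 0.678% of genes were called. All 10 fold changes were below 0, from -0.37 for Hspa1b to -0.05 for Dnajb1 on the log2 scale, with a median of -0.12 against 0.02 over all genes. The sign of Hspd1 turns on ethanol replicate 2 (116), as the other ethanol mice were at 136 and 161 against 139, 142 and 159 in control. Hsph1 had the lowest p-value, at -0.26 (SE 0.22, adjusted p = 0.997 by limma). This value leans on ethanol replicate 2, at 101, where the other ethanol mice were at 132 and 146 and controls at 143 to 163. Hspa8, by a small gap, and Hsp90ab1 did not overlap with control, and were at -0.10 (SE 0.14) and -0.13 (SE 0.12). That made 2 of 10 members without overlap, where 8.25% of genes had none, and 3 mice against 3 cannot give an exact permutation p below 0.10. Many of these members vary together across mice, as described below, so the 10 signs are not all separate observations.

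In stress mice 0 members were called, where 0.51% of genes were. Fold changes ran from -0.37 (Hspa1b) to 0.04 (Hspd1), 9 of them below 0, with a median of -0.10 against 0.004 over all genes. Dnajb1, the 1 member without overlap (7.2% of genes had none), was at -0.19 (SE 0.17, adjusted p = 0.9998 by limma). In ethanol + stress mice 0 members were called against 0.971% of genes, and no member was free of overlap, where 10.2% of genes were. Here 7 fold changes were below 0 and 3 above, from -0.25 (Hspa1b) to 0.48 (Hspb1), with a median of -0.15 against 0.02. Hspb1 had a mean of 17.1 ± 7.45 (SD, n = 3) scaled TPM against 11.8 ± 4.22 in control (SE of the log2 difference 0.34, adjusted p = 0.791 by limma), and its 95% confidence interval ran from -0.27 to 1.22. Hspa5 was at 0.27 (interval -0.28 to 0.81). Both values turn on single mice: without ethanol + stress replicate 2 they were 0.17 for Hspb1 and 0.04 for Hspa5, and without replicate 3 they were 0.81 and 0.57, in neither case past the threshold for a call. The 3 comparisons use the same 3 control mice, so their like signs are not independent.

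**Figure D2:**
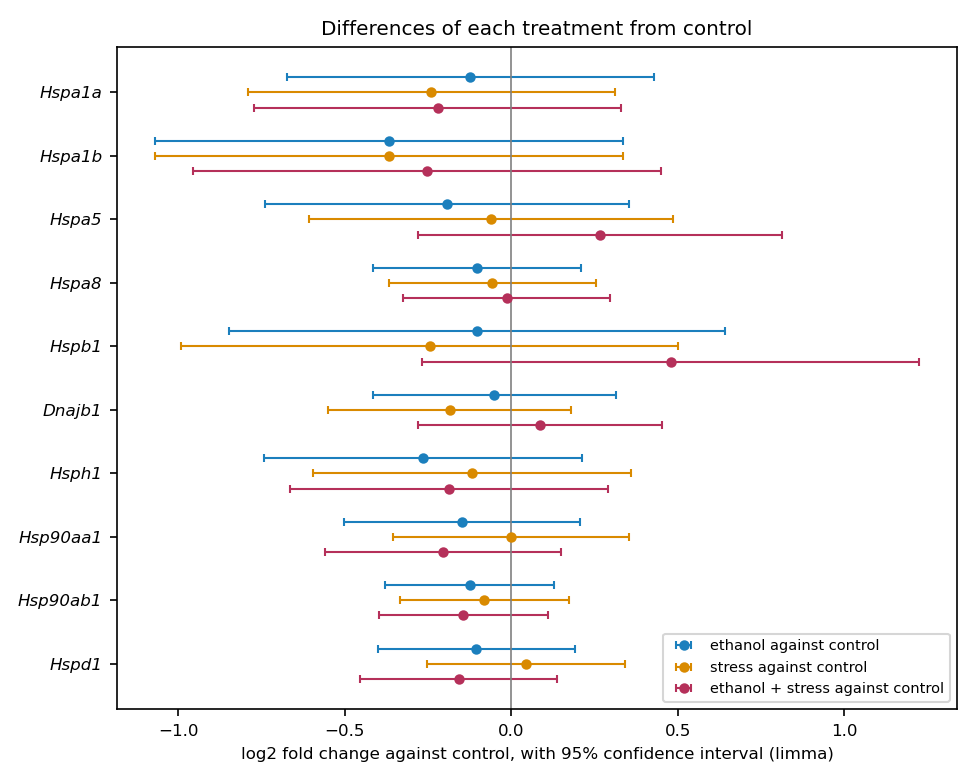
Log2 fold change of each gene against control (horizontal axis) with its 95% confidence interval from limma, coloured by treatment (n = 3 per group). All 30 intervals cross 0, and those of Hspa1b and Hspb1 are the widest.

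The intervals set what these data could show. Over the 10 members the ethanol intervals spanned -1.07 to 0.64, the stress intervals -1.07 to 0.50 and the ethanol + stress intervals -0.96 to 1.22 on the log2 scale. The narrowest were those of Hsp90ab1, from -0.38 to 0.13 in ethanol mice, from -0.34 to 0.17 in stress mice and from -0.40 to 0.11 in ethanol + stress mice. Larger changes of this gene lie outside its intervals, while the intervals of Hspb1 and Hspa1b leave room for larger ones.

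Averaged over rearing, ethanol called 0 members (1.12% of genes). Hspd1 had the lowest p, at -0.15 (SE 0.096, adjusted p = 0.760 by limma), and Hsp90aa1 followed at -0.18 (SE 0.11, same adjusted p). Averaged over prenatal treatment, separation called 0 (0.586%), with Hspa5 at 0.20 (SE 0.18). The interaction asks whether the ethanol difference is another in separated than in undisturbed mice, and it called 0 (0.461%). For 8 of 10 members it was above 0, led by Hspb1 at 0.83 (SE 0.48, adjusted p = 1 by limma), Hspa5 at 0.52 (SE 0.35) and Hspa1b at 0.48 (SE 0.45). For Hspb1 and Hspa5 it takes in the ethanol + stress difference from control. Without ethanol + stress replicate 2 that difference fell from 0.48 to 0.17 for Hspb1 and from 0.27 to 0.04 for Hspa5. A single library set the call for Hspa1b. Without ethanol + stress replicate 3, its lowest mouse, the interaction rose from 0.48 to 0.94 and passed the threshold for a call.

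Library properties moved with some of these values. All 10 marker lists of cell types and states were measured, none with a gene at 0 throughout. The summed blood markers were 1603 to 2022 in control, 3146 to 6815 in ethanol, 2593 to 3392 in stress and 2454 to 6480 in ethanol + stress mice, higher in every treated mouse than in any control. The summed choroid plexus markers ran from 39.3 to 7256 with 3 libraries far below the rest, ethanol replicates 2 and 3 and ethanol + stress replicate 3, and the markers of hippocampal neurons from 932 to 1112. The slope of a library's gene values over transcript length, relative to all libraries, was -0.15 in ethanol replicate 2 and ethanol + stress replicate 2 and -0.10 in ethanol + stress replicate 3, against -0.05 to 0.12 in the others. Leaving out these 3 libraries keeps a single ethanol + stress mouse, so it cannot serve as a check of that group. With the length trend removed from all libraries, the ethanol + stress difference was -0.20 for Hsp90aa1, -0.18 for Hspd1 and -0.15 for Hsp90ab1, against -0.21, -0.16 and -0.14 before.

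Many of the members varied together from mouse to mouse, and Dnajb1 was in none of the pairs that passed. Correlations are over the 12 mice on the log2 scale, with permutation p-values of 100000 draws adjusted within each family of relations, and all points share the scaling of their library. Of 45 pairs of members, 40 had a positive Pearson r, with a median of 0.61, and 18 had an adjusted permutation p under 0.05. With the 2 mice farthest from the median of a pair's first gene (in the order of the opening list) left out, 16 of these 18 kept an r above 0.5. In relations with other genes or measures below, the 2 mice are those farthest in the member. Leaving out extreme mice narrows the range, which by itself can lower r. Within groups all 18 were positive, from 0.72 to 0.96, and after removing the trend with transcript length they ran from 0.64 to 0.96. The share of such relations among all genes was not computed, here or in the families below. No count can thus be called particular to chaperones. Lists of partners were chosen with earlier results of these data known, which the p-values do not account for.

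The closest pair was Hsp90aa1 and Hspd1, a cytosolic and a mitochondrial chaperone, at r = 0.96 (rho 0.85, permutation p = 1e-05, the smallest these draws can give, adjusted 0.00045; r 0.89 without 2 mice). Hspa1a and Hspa1b, which share most of their sequence and could trade reads, had r = 0.93 (rho 0.93, permutation p = 4e-05, adjusted 0.000675). Hspa5 and Hspb1 had r = 0.92 (rho 0.83, permutation p = 6e-05, adjusted 0.000675; 0.80 without 2 mice). Hsph1 went with Hspa8 (r = 0.88), Hsp90ab1 (0.87) and Hspa1b (0.87). By contrast Hspb1 and Hspd1, both with heat shock pairs in the stretches printed above, had r = -0.21 (permutation p = 0.516), and Dnajb1 was at -0.16 with both Hsp90aa1 and Hspd1, which became 0.36 and 0.33 without 2 mice. The r of Hsph1 fell from 0.82 to 0.39 with Hsp90aa1 and from 0.70 to 0.08 with Hspd1 when 2 mice were left out. Within groups it was 0.84 and 0.72.

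**Figure D3:**
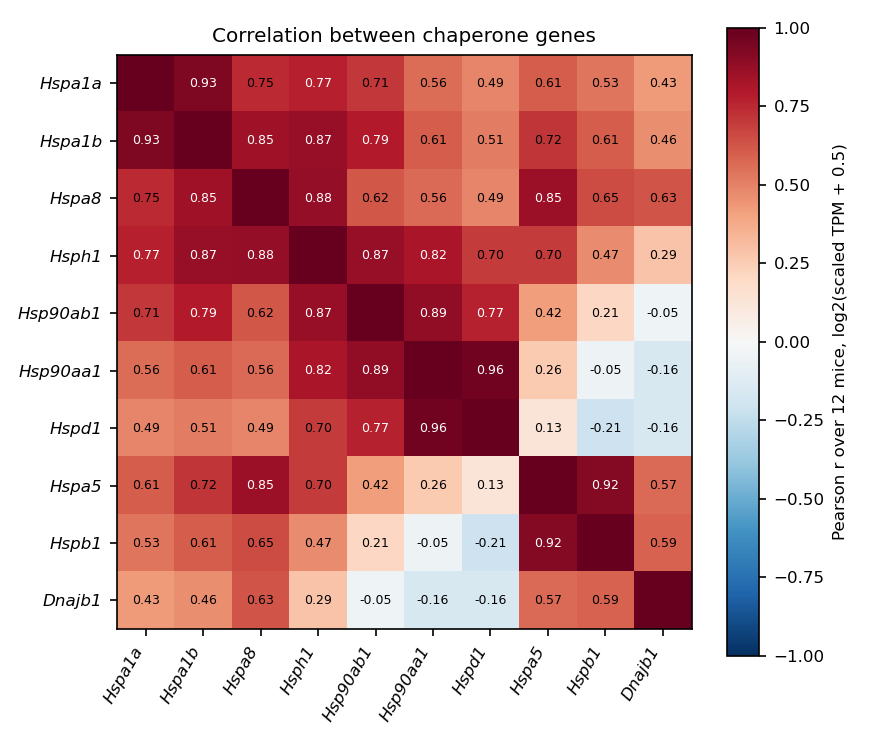
Pearson r between each pair of genes over 12 mice, on log2(scaled TPM + 0.5), printed in each cell and coloured from -1 (blue) to 1 (red). High values include Hsp90aa1 with Hspd1 (0.96) and Hsp90ab1 (0.89), Hspa1a with Hspa1b (0.93), Hspa5 with Hspb1 (0.92) and Hspa8 (0.85), and Hsph1 with Hspa8 (0.88), while Dnajb1 has none above 0.63.

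Hsp90aa1, Hspd1 and Hsp90ab1 followed the length slope of the library, at r = 0.89 (rho 0.92, permutation p = 0.00011, adjusted 0.00275), 0.87 (rho 0.85, adjusted 0.00387) and 0.78 (rho 0.74, adjusted 0.0203), and 0.93, 0.85 and 0.87 without 2 mice. All 3 also followed the summed hippocampal neuron markers, Hsp90aa1 at r = 0.77 (rho 0.81, adjusted permutation p = 0.0199), Hspd1 at 0.76 (rho 0.73, adjusted 0.0214) and Hsp90ab1 at 0.72 (rho 0.64, adjusted 0.0272). All 3 ran against the blood markers, Hsp90ab1 at r = -0.72 (rho -0.78, adjusted permutation p = 0.0271), Hsp90aa1 at -0.71 (rho -0.70, adjusted 0.0319) and Hspd1 at -0.66 (rho -0.60, adjusted 0.0487). Within groups these were -0.58, -0.73 and -0.72, and without 2 mice -0.77, -0.61 and -0.49. The part of these library properties in the levels of the 3 genes was not tested further. Hspa5 showed no such relation with the length slope, at r = -0.03 (permutation p = 0.926).

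Rbm3 and Cirbp, RNA-binding proteins known to rise when cells are cooled, ran against the chaperones. All 10 members had a negative r with Rbm3, from -0.91 to -0.12, and all 10 with Cirbp, from -0.89 to -0.43. The adjusted permutation p was under 0.05 for 7 members with Rbm3 and 6 with Cirbp. For rho it was under 0.05 only for Hsph1, Hsp90aa1 and Hsp90ab1 with Rbm3, and only for Hspa1b, Hspa5, Hspa8 and Hsph1 with Cirbp. Both partners were chosen with earlier results of these data known, and the p-values do not account for that choice. Some of these relations were weaker without 2 mice, where r with Rbm3 went from -0.66 to -0.13 for Hspd1 and from -0.79 to -0.41 for Hsp90aa1. With Cirbp, Hspd1 went from -0.45 to 0.20 and Hsp90aa1 from -0.60 to -0.09, neither with an adjusted p under 0.05 at first, and Dnajb1 had a rho of 0.08 with Rbm3. Hsph1 led in both, at r = -0.91 with Rbm3 (rho -0.81, permutation p = 9e-05, adjusted 0.00275; -0.77 without 2 mice) and -0.89 with Cirbp (rho -0.85, permutation p = 0.00026, adjusted 0.00387; -0.83 without 2 mice). Within groups the r was -0.96 for each, and with the length trend removed -0.85 and -0.77.

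In control mice Rbm3 measured 164, 200.7 and 198.5 scaled TPM, in ethanol mice 155, 308 and 139, in stress mice 221, 127 and 249, and in ethanol + stress mice 144, 159 and 314. Its highest mice, ethanol replicate 2 and ethanol + stress replicate 3, were the 2 mice with the lowest Hsph1, and its lowest mouse, stress replicate 2, had the highest Hsph1. Cirbp measured 75.7, 77.1 and 85.7 in control, 76.5, 109 and 72.0 in ethanol, 89.9, 70.3 and 115 in stress, and 72.1, 63.4 and 110.4 in ethanol + stress mice.

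Among 10 clock genes compared with Hsph1, 3 had an adjusted permutation p under 0.05. Dbp, a transcription factor under direct control of the clock, had r = -0.94 (rho -0.92, permutation p = 1e-05, the smallest possible, adjusted 1e-04; -0.84 without 2 mice). It had the lowest r with Hsph1 of 14445 genes, among which only 3 lay below Rbm3 and 7 below Cirbp. It was singled out after its value was seen, and its p-value does not account for that choice. Dbp measured 50.0, 53.7 and 58.8 in control, 59.2, 83.0 and 58.8 in ethanol, 58.5, 42.4 and 61.5 in stress, and 51.4, 44.5 and 82.0 in ethanol + stress mice. Nr1d2 (r = -0.77, adjusted permutation p = 0.0237) fell to -0.38 without 2 mice, and Clock was at 0.73 (adjusted 0.0237; 0.46 without them). The genes most like Hsph1 by r were Mettl16 (0.92), Xpo1 (0.92), Uba6 (0.91), Prkcsh (0.90) and Nabp1 (0.90).

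Hspa5 varied together with other ER proteins. Of 24 listed genes of ER folding and the unfolded protein response, 22 had a positive r with Hspa5 and 13 an adjusted permutation p under 0.05. The disulfide isomerases Pdia4 (r = 0.96, rho 0.94) and Pdia6 (r = 0.96, rho 0.94) and the transcription factor Xbp1 (r = 0.96, rho 0.95) led, each with permutation p = 1e-05, the smallest possible (adjusted 8e-05), and r of 0.97, 0.96 and 0.90 without 2 mice. Manf (0.89), Calr (0.88), Pdia3 (0.88) and Creld2 (0.87) followed. Hsp90b1, the ER form of Hsp90, was at r = 0.52 (rho 0.69, adjusted permutation p = 0.132), Dnajc10 at -0.54 and Sil1, an exchange factor for BiP, at -0.05. Over all 14445 genes the most like Hspa5 were Pdia4, Pdia6, Xbp1, the cytosolic co-chaperone Stip1 (0.94) and Sgk1 (0.92). Pdia4 measured 66.8, 48.1 and 54.5 in control, 57.1, 45.4 and 47.7 in ethanol, 55.8, 71.3 and 44.2 in stress, and 67.1, 74.9 and 45.7 in ethanol + stress mice, in nearly the order of Hspa5.

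Choroid plexus markers stand beside the Hspa5 values, since ethanol + stress replicate 2, the highest in Hspa5, was also the highest in that list, at 7256. Over the 9 libraries that were not far below the rest, r between the list and Hspa5 was 0.67 (rho 0.62, permutation p = 0.0476, adjusted 0.439) and 0.49 without 2 mice, and that with Hspb1 was 0.60 (permutation p = 0.0879, adjusted 0.439). No member had an adjusted p under 0.05 in this family of 10. The libraries left out were also low in Hspa5, ethanol replicate 2 at 216, ethanol replicate 3 at 214 and ethanol + stress replicate 3 at 209.8. Stress replicate 3, which was kept, was as low in Hspa5, at 212.8. A relation of the list with Hspa5 that takes in the left-out libraries was not tested. The r over 9 libraries thus cannot tell how far Hspa5 follows the list over all mice.

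**Figure D4:**
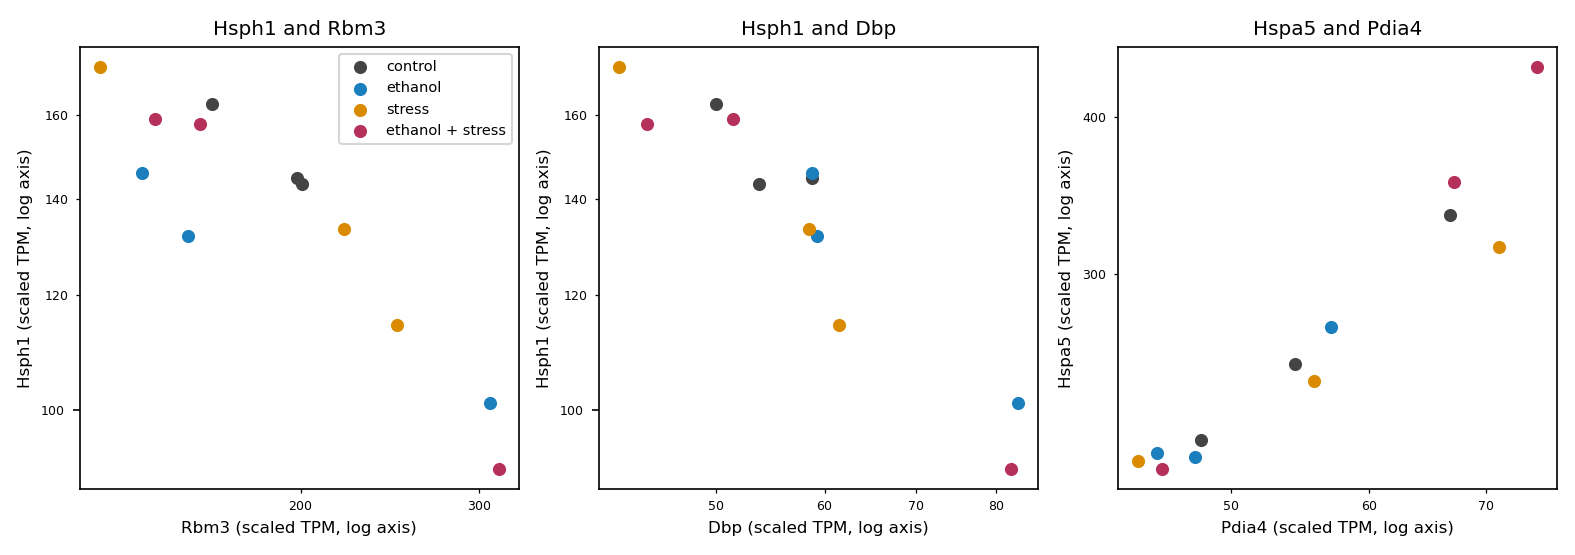
Hsph1 against Rbm3 and Dbp, and Hspa5 against Pdia4, in scaled TPM on log axes, with 1 point per mouse coloured by group. Hsph1 falls as Rbm3 (r = -0.91) and Dbp (r = -0.94) rise, Hspa5 rises with Pdia4 (r = 0.96), and mice of all 4 groups lie along each trend.

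The rest of the chaperone network gave as little difference between groups. Of 95 listed genes in 6 classes, 93 were tested and 0 were called in any comparison, in 558 tests. Of all genes, 0.461% (interaction) to 1.12% (ethanol averaged over rearing) were called in a comparison. An unadjusted p under 0.05 was reached 4 times, by 3 genes, with no adjusted p below 0.76 by limma. Among all 18434 genes, 442 (stress mice) to 1068 (ethanol averaged over rearing) reached it in a comparison. Bag3, a co-chaperone of Hsp70 in selective autophagy, was at -0.40 in stress mice (SE 0.16) and at 0.31 for ethanol averaged over rearing (SE 0.11). Chordc1, an Hsp90 co-chaperone, was at 0.36 in ethanol + stress mice (SE 0.15), and Unc45a, a myosin chaperone, at 0.22 for ethanol averaged over rearing (SE 0.10).

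By class, the median log2 fold changes in ethanol, stress and ethanol + stress mice were 0.02, -0.01 and 0.005 for 15 cytosolic stress-induced genes and their regulators. They were -0.03, 0.004 and -0.004 for 24 co-chaperones of Hsp70 and Hsp90, and -0.01, 0.11 and 0.20 for 7 tested small heat shock proteins. For 24 ER genes they were -0.08, 0.002 and 0.09, for 10 mitochondrial chaperones 0.02, 0.01 and 0.06, and for 13 tested subunits of TRiC and prefoldin 0.06, 0.001 and 0.11. The all-gene medians were 0.02, 0.004 and 0.02. The members' medians of -0.12, -0.10 and -0.15 lay below those of every class.

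Isoforms were described next, as the deposited values are per transcript. Of 52 member transcripts, 45 were tested, 14 made up at least 10% of their gene, 25 were at 0 in at least 1 library and 3 in all. A single protein-coding transcript held 98.5% of Hsp90ab1, 95.7% of Hspa8, 95.01% of Dnajb1 and 99.7% of Hspb1. Hspa5 was 78.8% full-length coding transcript and 16.9% a short transcript annotated to nonsense-mediated decay, whose share ran from 14.3% to 20.8% over mice. Such shares are of scaled TPM and so per length, and these transcripts had a mean of 4416 and 107 read pairs a library. Hsp90aa1 was 66.1% ENSMUST00000021698.12 and 28.7% ENSMUST00000094361.10, which differ in length. Hspd1 was 85.6% ENSMUST00000027123.14, and Hsph1 was 64.1% ENSMUST00000202361.3 and 15.98% ENSMUST00000074846.13.

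At the transcript level 6 calls at an unadjusted p under 0.01 fell on 4 transcripts, in 270 tests, with no adjusted p below 0.655 by limma. There was 1 call in ethanol mice (1.25% of all 59066 transcripts), 0 in stress (0.918%) and 0 in ethanol + stress mice (1.22%). Ethanol averaged over rearing gave 1 (1.47%), separation averaged over prenatal treatment 2 (0.936%) and the interaction 2 (0.862%). Each count is 2 or fewer of 45 transcripts. None of the 4 was a main transcript, and their highest value in a library was worth 5.98 to 35.6 read pairs.

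ENSMUST00000149189.1, a short coding transcript of Hsp90aa1 with 0.735% of the gene, measured 6.41, 6.90 and 9.16 in control, 4.66, 4.16 and 6.63 in ethanol, 9.81, 7.75 and 10.6 in stress, and 7.28, 5.81 and 4.09 in ethanol + stress mice. It was lower with ethanol averaged over rearing, by -0.60 (SE 0.17, adjusted p = 0.655 by limma), and the values overlapped between control and ethanol mice and not between stress and ethanol + stress mice. The retained-intron transcript ENSMUST00000127699.1 of Hspa8 was at 5.26, 1.72e-05 and 5.78 in control, 5.33, 4.82 and 2.79 in ethanol, 0, 2.95 and 0 in stress, and 0 in all ethanol + stress mice. Its highest value was 11.9 read pairs, and it was called for separation averaged over prenatal treatment (adjusted p = 0.9998 by limma), where the fitted fold depends on the added 0.5.

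Some minor isoforms varied widely between mice of a group without a call. ENSMUST00000117557.7, a shorter coding transcript of Hspa8, ran from 0.30 to 208 scaled TPM, with both extremes in control mice. ENSMUST00000134967.1, a retained-intron transcript of Hsp90aa1, ran from 0 to 67.0. ENSMUST00000201877.1, a retained-intron transcript of Hsph1, ran from 0 to 24.1, with both extremes in ethanol + stress mice. The gene sums above take in these transcripts, so a shift of reads among the isoforms of a gene leaves much of its sum in place.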

How the data were processed

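The labels place 12 hippocampal RNA libraries in 4 groups of 3, and all were used. The deposited values are a signal per transcript: the authors assigned paired-end reads by pseudo-alignment (kallisto, Ensembl mouse transcriptome) and scaled the TPM between libraries, which then sum to 889222 to 1173650. The tool versions are not given in the sources used here. Of 115270 transcripts, 113580 were matched to GENCODE vM21 (GRCm38) by identifier, and values were summed per gene. The unmatched ones held 0.518% to 0.58% of a library. From the steps of low values, depth was recovered as 12050000 to 14910000 read pairs a library. In that check 86.2% to 87.8% of low values were whole within 0.2, where 40% would be by chance. No count test was run, and the recovered read pairs give counting error only.

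Features of at least 0.1 in at least 6 libraries were tested with limma 3.58.1 (R 4.3.3; 1 fit over all 4 groups, log2(value + 0.5), eBayes with trend) after a check on simulated data. Calls use an unadjusted p under 0.01, as in the study. Pseudocount, filter, scaling, variance model, samples, replicate block and left-out libraries were varied. The members and gene lists, and the partners named for Hsph1 and Hspa5, were chosen with earlier results of these data known. Correlations used scipy 1.17.1. Genes were named if they were members, listed with an unadjusted p under 0.05, or among the 5 most alike. Other genes named were chosen after their values were seen.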

Additional observations from a re-analysis of the deposited data

Results flagged for a closer look

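A pair of minor transcripts of Hsph1 passed an unadjusted p under 0.01 in the interaction test of limma, which asks whether the ethanol difference is the same in separated and undisturbed mice. So did 0.862% of all 59066 transcripts, neither passes after adjustment, and the count of such calls among the member transcripts is 1 with a pseudocount of 0.1. ENSMUST00000201559.3, a coding transcript with 1.99% of the gene, measured 1.40, 3.18 and 4.61 scaled TPM in control, 3.76, 0 and 0 in ethanol, 0, 0 and 1.44 in stress, and 4.32, 8.74 and 5.58 in ethanol + stress mice. Its interaction was 4.73 on the log2 scale (SE 1.18, adjusted p = 1 by limma), and its highest value was worth 35.6 read pairs. Control and ethanol + stress mice were at or above 1.40, and 4 of the other mice were at 0.

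ENSMUST00000202137.1, a retained-intron transcript with 0.235% of Hsph1, measured 0.435, 0 and 0.27 in control, 0.588, 1.43 and 0.662 in ethanol, 0.228, 0.289 and 0 in stress, and 0 in all ethanol + stress mice. Its interaction was -1.32 (SE 0.41, adjusted p = 1 by limma), and it was also called in ethanol mice (0.92) and for separation averaged over prenatal treatment (-0.77). No library held more than 5.98 read pairs of it, so these fitted differences depend on the added 0.5.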

How the results depend on the processing

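The spread between 3 mice a group limits what could be called, most of all for Hspb1 and Hspa1b, and counting error at this depth was at most 14.3% for a member. Over 25 alternative settings, the count of members called was 0 in 140 of 141 counts. The exception was the interaction without ethanol + stress replicate 3, where Hspa1b was called, so that this count ran from 0 to 1 when libraries were left out in turn. Counts of other chaperones called stayed at 0 under the stricter filter and the replicate block. All but 1 of 1422 member differences stayed on the same side of the threshold. Signs were compared only for the 20 of 60 differences larger than their SE, and 465 of their 473 alternatives kept the sign. The other 8 came from 2 settings chosen after seeing the data, each of which leaves a group with 1 mouse that is assumed to vary like the rest, so they describe that mouse and do not check the group. Leaving out the 3 libraries of lowest length slope keeps only ethanol + stress replicate 1 of its group and turned the log2 difference of Hsp90aa1 (0.0862), Hsp90ab1 (0.01998) and Hspd1 (0.106) in ethanol + stress mice. For ethanol averaged over rearing it turned Hsph1 (0.0447), Hsp90aa1 (0.0422), Hsp90ab1 (0.0109) and Hspd1 (0.0375). Leaving out the 3 libraries of lowest choroid plexus level keeps only ethanol replicate 1 of its group and turned Hsph1 for ethanol averaged over rearing (0.00611). Removing the length trend, also added after seeing the data, turned none of these 20.

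Counts of member transcripts called were small and moved. With a pseudocount of 0.1 they were 0 in ethanol mice and 1 for the interaction. With the low-slope libraries out they were 0 in ethanol mice, 2 in the 1 ethanol + stress mouse left, 0 for ethanol averaged, 1 for separation averaged and 0 for the interaction. With the low choroid plexus libraries out, and 1 ethanol mouse left, they were 1 in ethanol + stress mice, 0 for ethanol averaged, 1 for separation averaged and 1 for the interaction. Leaving out libraries in turn gave 0 to 2 in ethanol, 0 to 1 in stress, 0 to 2 in ethanol + stress mice, 0 to 2 for ethanol averaged, 0 to 4 for separation averaged and 1 to 4 for the interaction. Where this left a group with 2 mice, the spread was still pooled over all groups.

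With the replicate block the counts of member transcripts called were 0 in ethanol, 1 in ethanol + stress mice and 1 for separation averaged, and members called stayed at 0. The replicate numbers showed no clear pairing of the mice. Over 18 same-numbered pairs of groups, deviations correlated from -0.17 to 0.16, above 0.1 in 1, and 2 of 12 libraries were closest to their own number. This check cannot tell whether same-numbered mice shared a litter.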
